A study of Homo sapiens with 4 samples.

Results

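Heparan sulfate and chondroitin sulfate are long, sulfated sugar chains carried by proteoglycans, the proteins that coat the cell surface and fill the extracellular matrix. Both chains start on a shared linker that is built on a serine of the core protein, after which separate polymerases extend heparan sulfate or chondroitin sulfate and a series of sulfotransferases and epimerases modify the growing chain. The modified stretches bind growth factors, morphogens and matrix proteins, so these enzymes set what a cell can bind at its surface. N6-methyladenosine (m6A) is placed on messenger RNA by the METTL3 methyltransferase complex, mostly at the DRACH sequence, where D stands for any base but C, R for a purine and H for any base but G.

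The genes described here are 45 members of this pathway, taken by name from the steps of the pathway. The choice was made with earlier results of these data known, so the counts below are not those of an unselected set. The members comprise 6 genes for the linker, 4 for heparan sulfate (HS) chain synthesis, 11 for HS modification, 6 for chondroitin sulfate (CS) chain synthesis, 8 for CS modification and 10 core proteins. m6A sites were taken from a single list for wild-type (WT), untreated C643 cells, an established line from an anaplastic thyroid carcinoma, made by miCLIP2 on polyadenylated RNA. In this assay RNA is crosslinked to an antibody against m6A and the ends of the cDNAs point to single nucleotides, which the m6Aboost classifier then scores. The 3 biological replicates, sequenced as 4 libraries, form 1 group and were pooled by the authors into 1 list of 18789 sites on GRCh38, each with a prediction score between 0.5 and 1. No values per replicate, read counts or expression levels were used here, so depth is unknown, no test between samples was possible, and the identity of the cells could not be checked against marker genes. Shares below carry 95% Wilson intervals, which cover the counting of sites or motifs only, and the sites of a gene share its reads and are not replicates. Absence of a gene from the list may mean low coverage of its RNA as well as absence of m6A, and the files used here cannot tell these apart.

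The list held 246 sites in exons of 20 of the 45 members, and the other 25 members had none. Among 19680 protein-coding genes, 19.9% had a listed site. Members with a site had a median of 11 sites (quartiles 7.25 and 15), compared with 3 (2 and 7) over all 3910 protein-coding genes with a site. Per kilobase of spliced transcript the medians were 2.29 sites in the members and 1.31 in 3630 protein-coding genes. Those 3630 are the genes with a site assigned to their chosen transcript, and motif shares over all genes also use them. NDST1, which starts the modification of the HS chain, held 42 sites, or 17.1% of the total. The 20 members were XYLT2, B4GALT7, B3GALT6 and B3GAT3 of the linker, EXT1, EXT2 and EXTL3 of HS chain synthesis, NDST1 and HS3ST3A1 of HS modification, CHPF and CHPF2 of CS chain synthesis, CHST7, CHST12 and CHST14 of CS modification, and the core proteins SDC1, SDC3, SDC4, GPC1, HSPG2 and AGRN.

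The windows of 21 nt below show the sites on which the description turns. Each is printed 5′ to 3′ on the strand of the transcript, from GRCh38, with the pentamer around the listed adenosine in capitals, so that the adenosine is the middle base. The first set covers NDST1 and shows its highest score, a high score outside DRACH just after the stop codon, the coding site just before the stop codon and its lowest score.
NDST1 3′ UTR, score 0.934, chr5:150554778-150554798, plus strand: ggcccacaGAACTgtctccag
NDST1 3′ UTR, score 0.919, chr5:150553347-150553367, plus strand: gccagactGAACGtttgtgaa
NDST1 coding, score 0.655, chr5:150553303-150553323, plus strand: ctacgagaGGACCtccagaac
NDST1 coding, score 0.510, chr5:150521711-150521731, plus strand: gagctgctGGACAagtactgt

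The second set shows the paralogs CHPF and CHPF2, in which sites of both genes fell on the same aligned coding positions. The pairs follow each other.
CHPF first pair, score 0.777, chr2:219540517-219540537, minus strand: ctgcgctgGGACTacttcacg
CHPF2 first pair, score 0.730, chr7:151237479-151237499, plus strand: ctgggctgGGACTacttcaca
CHPF second pair, score 0.799, chr2:219540304-219540324, minus strand: tacacgctGGACTtgcagctg
CHPF2 second pair, score 0.759, chr7:151237692-151237712, plus strand: tacaccctGGACCtgctgttg
CHPF last pair, score 0.768, chr2:219539878-219539898, minus strand: cacccgctGGACAcactgttc
CHPF2 last pair, score 0.872, chr7:151238112-151238132, plus strand: caccctgtGGACActctcttc

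The last set shows the ends of the score range among the other members and a site whose adenosine is the last base of a stop codon.
SDC1 3′ UTR, score 0.968, chr2:20201798-20201818, minus strand: gacagagaGGACTgtagggag
CHST14 3′ UTR, score 0.963, chr15:40472413-40472433, plus strand: attcggagAAACTctggctct
CHST14 stop codon, score 0.697, chr15:40472334-40472354, plus strand: gtcagcagTGACCatgggtgt
AGRN coding, score 0.508, chr1:1047408-1047428, plus strand: ccaagtcaGAACTgttcgggg
B3GALT6 3′ UTR, score 0.505, chr1:1233405-1233425, plus strand: cgtttgggAGACCcctggggg

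**Figure D1:**
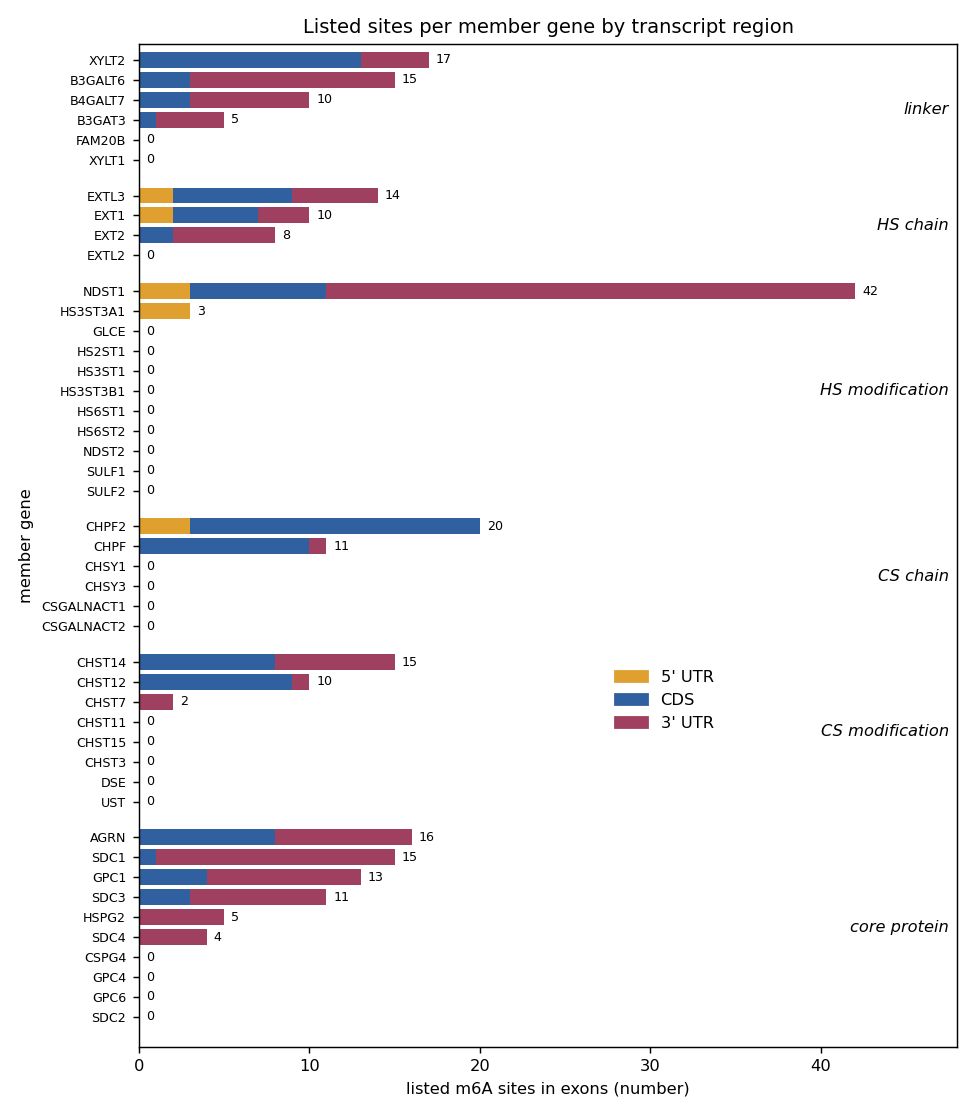
Number of listed m6A sites in the exons of each of the 45 member genes, grouped by step of the pathway and coloured by transcript region; the number ends each bar. NDST1 had 42 sites, CHPF2 followed with 20, and 25 members had 0.

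To take into account how many candidate motifs a transcript holds, the number of listed DRACH motifs was divided by all DRACH motifs in the chosen transcripts of genes with a site. The chosen transcript is the longest one left after a filter on annotation support, with protein-coding transcripts preferred in protein-coding genes. Whether C643 cells hold it in full was not tested. In the 20 members, 212 of 1862 motifs were listed (11.4%, 10.02 to 12.9), and over all protein-coding genes with a site 7.33% of 212491 were. Read depth could not be taken into account, here or in later shares, and its part in such differences was not tested. The share was above 7.33% in 14 of the 20 members. The shares by step also leave out the members without a site. These were 2 of 6 for the linker, 4 of 6 for CS chain synthesis, 9 of 11 for HS modification and 4 of 10 core proteins. They were 5 of 8 for CS modification and 1 of 4 for HS chain synthesis. Among members with a site the share was 24.7% of 166 motifs (18.8 to 31.8) for the linker and 23.8% of 101 (16.5 to 32.9) for CS chain synthesis. It was 19.8% of 202 (14.9 to 25.8) for HS modification and 9.79% of 562 (7.596 to 12.5) for the core proteins. It was 7.96% of 314 (5.45 to 11.5) for CS modification and 5.22% of 517 (3.61 to 7.49) for HS chain synthesis. Some of these values rested on single genes. Without NDST1, HS modification was left with HS3ST3A1 alone, in which 3 of 63 motifs (4.76%, 1.63 to 13.1) were listed. Without CHST12 the CS modification share was 22.9% of 70 motifs (14.6 to 34.0), and without CHST14 it was 4.0% of 275 (2.25 to 7.02). Without HSPG2 the core protein share was 13.9% of 361 motifs (10.7 to 17.8).

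NDST1 encodes an N-deacetylase and N-sulfotransferase, which removes acetyl groups from the glucosamines of the HS chain and replaces them with sulfate, a step on which the later modifications depend. The gene lies on the plus strand of chromosome 5 (chr5:150485818-150558211). Its chosen transcript had 8011 nt in 15 exons, with a 5′ UTR of 483 nt, a coding sequence of 2649 nt and a 3′ UTR of 4879 nt. Of its 42 sites, 3 lay in the 5′ UTR, 8 in the coding sequence and 31 in the 3′ UTR. Of its 139 DRACH motifs, 37 were listed (26.6%, 20.0 to 34.5). The share was 35.0% of 80 motifs (25.5 to 45.9) in the 3′ UTR and 13.5% of 52 (6.68 to 25.3) in the coding sequence. The pentamer GGACT was listed at 7 of 10 occurrences in the transcript, and at 4 of 4 in the 3′ UTR.

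Along NDST1, 7 of the 8 coding sites lay in exons 2 and 3, and most sites of the gene lay in the last exon. Exon 2, which holds the start codon, had 6 sites and exon 3 had 4. Exons 4 to 14 are 11 exons of 88 to 186 nt that make up 1521 nt of coding sequence, and 0 of their 30 DRACH motifs were listed, for which the upper end of the Wilson interval is 11.4%. Exon 15, with 4999 nt, carried the remaining 32 sites. The junction before exon 15 is followed by 5 coding motifs, of which 1 was listed, 17 nt upstream of the first base of the stop codon. The longest stretch of the transcript between neighbouring sites was 1773 nt, from exon 3 to exon 15.

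The stop codon of NDST1 lay within the run that held the most sites in the gene. A run is defined as sites at most 50 nt from the next in the transcript. This one held 6 sites in 137 nt (chr5:150553313-150553449), with scores of 0.655, 0.823, 0.919, 0.7498, 0.854 and 0.734 from 5′ to 3′. The first was coding and the others were in the 3′ UTR, and the highest score of the run was at the GAACG pentamer printed above. The AGACT site before it lay 5 nt away, and no gap between NDST1 sites was smaller.

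Farther along the 3′ UTR, sites came in groups. Successive blocks of 1000 nt held 13, 4, 11, 1 and, in the shorter last block, 2 sites. The listed share of motifs was 10 of 17 in the first block (58.8%, 36.0 to 78.4) and 11 of 18 in the middle block (61.1%, 38.6 to 79.7), against 4 of 17, 1 of 15 and 2 of 13 in the others. The numbers of motifs per block were thus similar while the listed shares ran from 1 of 15 to 11 of 18. The intervals for 4 of 17 (9.56 to 47.3%) and 2 of 13 (4.33 to 42.2%) overlapped those of the first and middle blocks. That for 1 of 15 (1.19 to 29.8%) did not. In all, 24 sites lay more than 400 nt beyond the stop codon, the last at 4450 nt, and the largest gap within the 3′ UTR was 1070 nt. Of the 41 gaps between neighbouring sites, 13 were at most 50 nt and the median was 80 nt.

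Scores in NDST1 were higher in the 3′ UTR (median 0.841, range 0.522 to 0.934) than in the coding sequence (median 0.624, range 0.510 to 0.816), and the ranges overlapped. The 3 sites of the 5′ UTR had scores of 0.766, 0.753 and 0.612. All 5 sites above 0.9 were in the 3′ UTR, and 30 of the 42 sites had a score of at least 0.7. Besides GAACG, the sites outside DRACH were at GGACG (0.612), GTACT (0.711), ATACT (0.734) and GTACA (0.522). The nearest paralog, NDST2, had no site. Its coding sequence was 73.1% identical to that of NDST1 over 2614 aligned nt, and 3 of the 8 coding sites of NDST1 were aligned to a DRACH motif of NDST2.

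**Figure D2:**
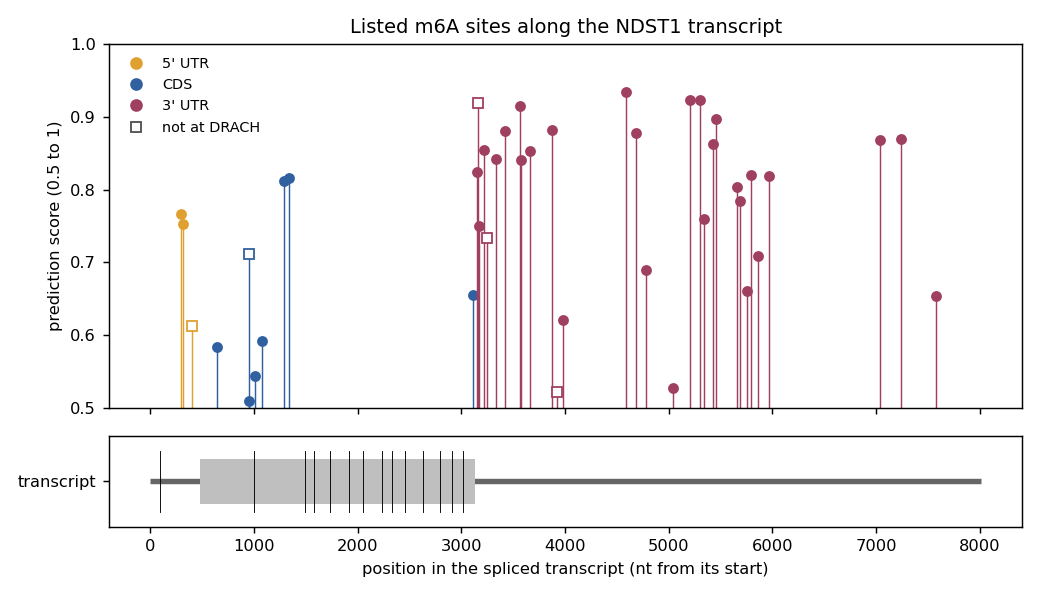
Prediction score of each of the 42 listed sites (vertical axis, 0.5 to 1) at its position in the spliced NDST1 transcript (horizontal axis, nt), coloured by region, with open squares for sites outside DRACH. The lower track shows the coding sequence as a grey box and exon junctions as vertical lines; no site fell in exons 4 to 14.

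The linker genes build the tetrasaccharide that both chains share. XYLT2, a xylosyltransferase that adds the first sugar, had 17 sites, 13 of them coding, with 14 of 62 motifs listed (22.6%, 13.96 to 34.4). Its coding sites were spread over exons 2, 7, 9, 10 and 11, and 4 of them formed a run of 87 nt in exon 11 (chr17:50360127-50360213) with scores of 0.687, 0.912, 0.958 and 0.814. A pair of XYLT2 sites in the 3′ UTR lay on adjacent nucleotides, at TGAAC with a score of 0.530 and at GAACT with 0.949. The paralog XYLT1 had no site, and 5 of the 13 coding sites of XYLT2 were aligned to a DRACH motif of XYLT1 (69.5% identical over 2571 nt). B4GALT7 and B3GALT6, which add the galactoses, had 10 and 15 sites, and B3GAT3, which adds the closing glucuronic acid, had 5. In these 3 genes most sites were in the 3′ UTR (7, 12 and 4, respectively). FAM20B, the kinase that phosphorylates the linker xylose, had no site.

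Of the HS chain genes, EXTL3, which places the first N-acetylglucosamine on the linker, had 14 sites, all at DRACH. Of these, 7 lay in a single coding exon, exon 3, with 2148 coding nt, and none in the 4 shorter coding exons after it. EXTL3 also held a high-scoring GGACT in the 3′ UTR (chr8:28751114, 0.960). EXT1 and EXT2, whose products form the HS polymerase, had 10 and 8 sites. All 5 coding sites of EXT1 were in exon 1, with 962 coding nt, and both coding sites of EXT2 were in exon 2, with 536 coding nt, which is the longest coding stretch of each gene. Both have long last exons in the chosen transcript. Only 3 of 118 3′ UTR motifs in EXT1 and 4 of 141 in EXT2 were listed, the farthest of them 521 nt from the stop codon. Whether the 3′ UTR beyond these sites is present in the cells was not tested. EXTL2 had no site.

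Among the HS modification enzymes, HS3ST3A1, a 3-O-sulfotransferase, was the only member besides NDST1 with a site. Its 3 sites were all in the 5′ UTR, with scores of 0.677, 0.654 and 0.768, and 0 of 17 coding and 0 of 34 3′ UTR motifs were listed. Its coding sequence was 88.0% identical to that of HS3ST3B1, with an identical run of 537 nt, and only uniquely mapping reads were kept upstream. HS3ST3B1 had no site, and the effect of the shared sequence on either gene was not tested. The epimerase GLCE, the 2-O-sulfotransferase HS2ST1, the 6-O-sulfotransferases HS6ST1 and HS6ST2, the 3-O-sulfotransferase HS3ST1, the extracellular 6-O-endosulfatases SULF1 and SULF2, and NDST2 had no site.

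Sites of the CS chain genes were mostly coding. CHPF and CHPF2, which encode chondroitin polymerizing factors that act with the chondroitin synthases, had 11 and 20 sites, and 27 of these 31 were coding (87.1%, 71.1 to 94.9), against 42.0% of 17567 sites over all protein-coding genes. In CHPF2, 11 sites lay in the coding part of exon 4 (1308 nt), 5 in exon 2 and 1 in exon 3. In CHPF, 7 lay in the coding part of exon 4 (1260 nt) and 3 in exon 2. Both genes have short 3′ UTRs, with 6 DRACH motifs in CHPF and 3 in CHPF2. The coding sequences were 67.5% identical over 2244 aligned nt, and 3 sites of one gene were aligned to a site of the other. The distances of these sites from the junction before exon 4 were 116, 329 and 755 nt in CHPF and 116, 329 and 749 nt in CHPF2. The remaining 7 coding sites of CHPF comprised 1 aligned to an unlisted DRACH motif of CHPF2 and 6 aligned to no DRACH motif. CHPF2 had 6 sites outside DRACH, of which 4 were at GGACG, with scores of 0.845, 0.740, 0.738 and 0.885. Another CHPF2 site, at GAACT with a score of 0.827 (chr7:151238429), also lay in the annotated exon of the microRNA gene MIR671. The synthases CHSY1 and CHSY3 and the chain initiators CSGALNACT1 and CSGALNACT2 had no site.

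Among the CS modification enzymes, CHST14, the 4-O-sulfotransferase of dermatan sulfate, had 15 sites in a transcript of 2175 nt and 1 exon, or 6.90 per kilobase, the highest density among the members. Of its 39 motifs, 14 were listed (35.9%, 22.7 to 51.6). A run of 5 sites (chr15:40472344-40472513) started in the stop codon itself, at the adenosine of TGA, and continued into the 3′ UTR with scores of 0.697, 0.845, 0.963, 0.852 and 0.901. CHST12, a 4-O-sulfotransferase of chondroitin, had 9 coding sites and 1 in the 3′ UTR. In its coding sequence 8 of 16 motifs were listed, with a run of 5 sites in 153 nt (chr7:2433669-2433821). In the long 3′ UTR of the chosen transcript 1 of 228 motifs (0.439%, 0.0775 to 2.44) was listed, and whether the cells hold that 3′ UTR in full was not tested. CHST7, a 6-O-sulfotransferase, had 2 sites, both in the 3′ UTR. CHST3, CHST11, CHST15, UST and DSE had no site.

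Of the core proteins, the syndecan SDC1 had 15 sites, 14 of them in the 3′ UTR, where 13 of 33 motifs were listed (39.4%, 24.7 to 56.3). Its scores in the 3′ UTR ran from 0.641 to 0.968, with 4 above 0.9. The syndecans SDC3 and SDC4 had 11 and 4 sites, and SDC2 had none. The glypican GPC1 had 13 exonic sites, one of them at the last base of its TAA stop codon (chr2:240466290, TAACT, 0.568) and first in a run of 4 sites in 61 nt. GPC1 was also the sole member with sites outside annotated exons, at GGACG (0.779) and GGACC (0.656) in an intron. GPC4, GPC6 and the membrane proteoglycan CSPG4 had no site.

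The basement membrane proteoglycans HSPG2 (perlecan) and AGRN (agrin) have coding sequences cut into many exons. In HSPG2, 0 of 188 coding motifs were listed in 13176 nt of coding sequence over 97 exons, for which the upper end of the Wilson interval is 2.002%. All 5 HSPG2 sites were in the 3′ UTR, at 5 of 13 motifs, with scores from 0.832 to 0.929. In AGRN, with 38 coding exons, 7 of 74 coding motifs were listed (9.46%, 4.66 to 18.3), and 7 of its 8 coding sites lay at most 100 nt from a junction. Its 8 sites of the 3′ UTR included 4 that also lay in exons of another annotated gene on the same strand (ENSG00000242590), to which their reads could equally belong.

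**Figure D3:**
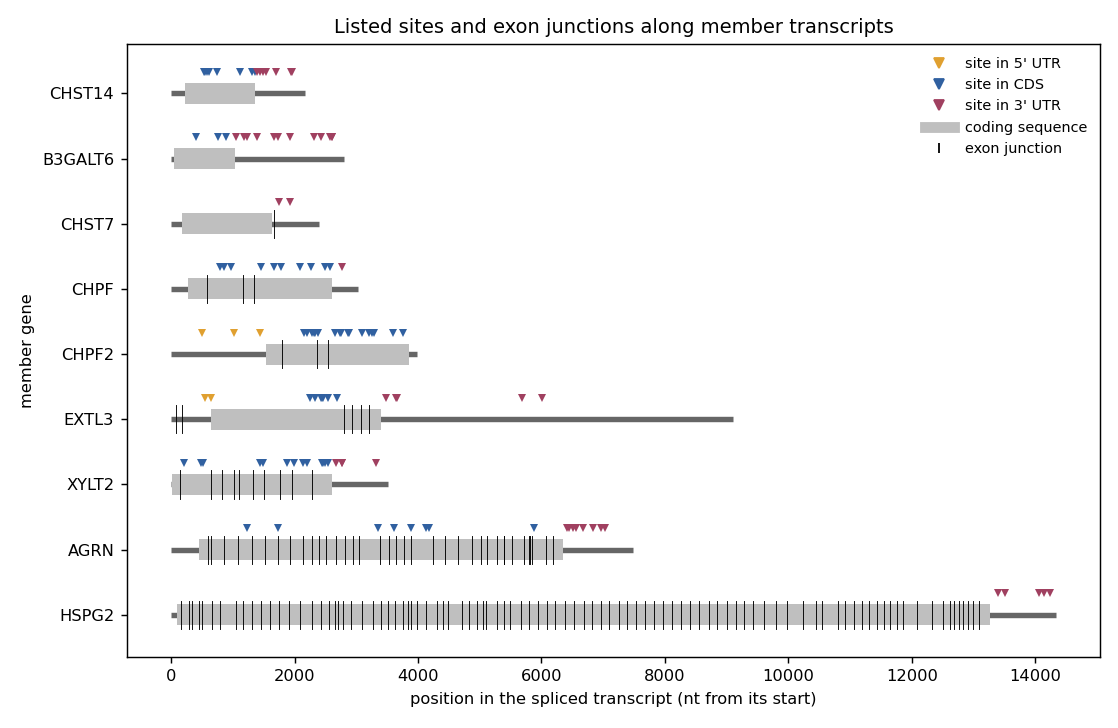
Spliced transcripts of 9 members drawn to scale (horizontal axis, nt from the start), with the coding sequence as a grey box, exon junctions as vertical lines and listed sites as triangles coloured by region. All 7 coding sites of EXTL3 lie in exon 3, while CHPF and CHPF2 have coding sites in exon 2 as well as in the longer exon 4. CHST14 has 1 exon, and HSPG2 has sites in its 3′ UTR only.

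Long single coding exons were examined next. The whole coding sequence lies in 1 exon in B3GALT6, HS3ST1, CHST7, CHST12 and CHST14, of which all but HS3ST1 had a site. In these 4 genes 17 of 49 coding motifs were listed (34.7%, 22.9 to 48.7), with 8 of 16 in CHST12, 7 of 16 in CHST14, 2 of 4 in B3GALT6 and 0 of 13 in CHST7. Over all protein-coding genes of this kind with a site the share was 21.8%. In the 16 members with a site and a split coding sequence it was 66 of 687 (9.61%, 7.62 to 12.04), and 5.74% over all such genes. HSPG2 supplied 188 of the 687 motifs, with 0 listed, and without it the member share was 13.2% of 499 (10.5 to 16.5). In B3GALT6, CHST12 and CHST14 the single coding exon is also the last exon, while in CHST7 it is exon 1 of 2. Of member coding motifs, 28.1% of 135 (21.2 to 36.3) were listed in last exons and 7.49% of 601 (5.64 to 9.87) in earlier ones. Over all genes these shares were 18.0% and 3.86%. The part of the last exon in the contrast above was not tested. A long coding exon was not always accompanied by a site. A coding stretch of at least 1000 nt in 1 exon was present in 13 members, of which 6 had a site anywhere in the transcript (CHPF, CHPF2, EXTL3, CHST7, CHST12 and CHST14). Of 2675 protein-coding genes with such a stretch, 15.3% had a site. CHST7 had 0 sites in the stretch itself. NDST2, GLCE, CHSY1, CHSY3, CHST3, DSE and CSPG4, which has such a stretch of 3537 nt, had none.

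Distance from exon junctions split the coding motifs of the members further. Of 504 coding motifs at most 100 nt from a junction, 21 were listed (4.17%, 2.74 to 6.29), compared with 62 of 232 farther away (26.7%, 21.4 to 32.8). The motifs farther away include those of B3GALT6 (2 of 4 listed) and CHST14 (7 of 16), whose transcripts have no junction. Over all protein-coding genes with a site these shares were 2.43% and 18.2%. HSPG2 supplied 186 of the 504 motifs near a junction, and without it the share was 6.60% (4.36 to 9.88). Near a junction, AGRN had 6 and XYLT2 had 5 of the 21 listed motifs. In coding exons of at least 400 nt, 22.2% of 284 motifs were listed (17.7 to 27.4), and 4.42% of 452 (2.88 to 6.74) in shorter ones, compared with 16.4% and 1.96% over all genes.

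By region, 13 of the 246 member sites (5.28%) lay in the 5′ UTR, 102 (41.5%) in the coding sequence and 131 (53.3%, 47.0 to 59.4) in the 3′ UTR. Over all protein-coding genes 55.3% of sites were in the 3′ UTR, within the interval of the members, and 2.49% in the 5′ UTR, below the interval of 3.11 to 8.83. The 13 sites of the 5′ UTR were in NDST1, HS3ST3A1, CHPF2, EXT1 and EXTL3. The listed share of motifs was 10.3% in the 5′ UTR (12 of 117), 11.3% in the coding sequence and 11.6% in the 3′ UTR of members, compared with 3.17%, 6.29% and 9.06% over all genes. CHST12 supplied 228 of the 1009 member motifs in the 3′ UTR, with 1 listed. Without it the member share in the 3′ UTR was 14.9% (12.5 to 17.5). Within 200 nt of the stop codon 51 of 152 motifs were listed (33.6%, 26.5 to 41.4), against 19.3% over all genes, and farther away 9.42%, against 5.59%. The classifier itself used transcript region and surrounding sequence, so these comparisons of regions and motifs are not independent of it.

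**Figure D4:**
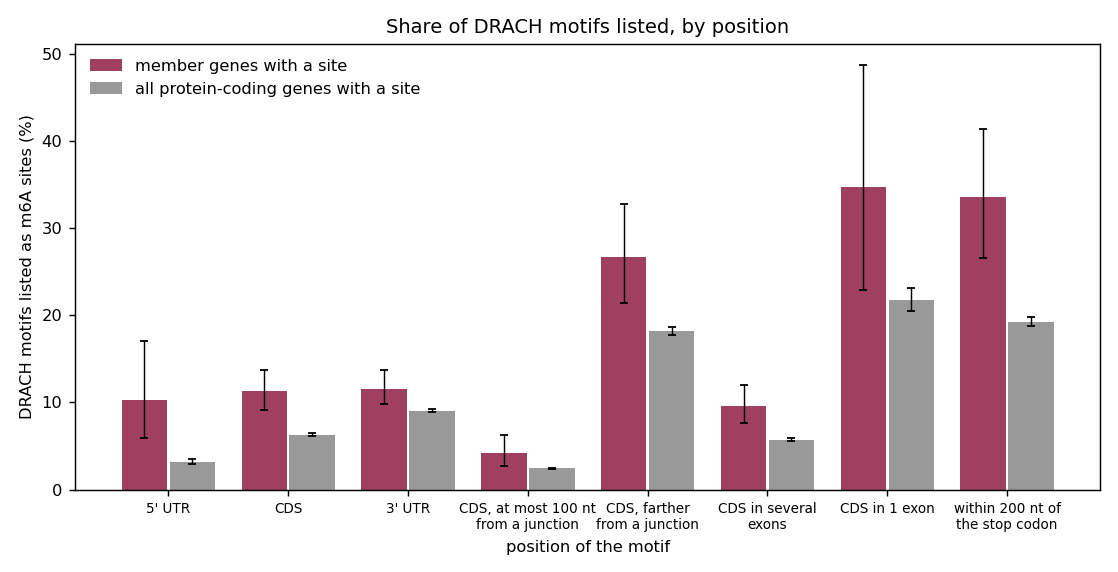
Percentage of DRACH motifs listed as m6A sites (vertical axis) by position of the motif, for the 20 members with a site and for all protein-coding genes with a site; error bars are 95% Wilson intervals. In the members, 26.7% of coding motifs farther than 100 nt from a junction, or in a transcript without one, were listed and 4.17% of those nearer.

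Most member sites lay at DRACH (212 of 246, 86.2%, 81.3 to 89.9), as did 88.7% of all sites. Of the 246 member sites, GGACT accounted for 57 and GGACA for 39, while 25 were at GGACC. A further 23 were at AGACT, and GAACT accounted for 21. Of the pentamers, GGACT was listed at 43.2% of its 132 occurrences in member transcripts (35.0 to 51.7) and at 25.8% over all genes, and GGACA at 24.1% of 162 (18.1 to 31.2) and 12.7%. GGACC was listed at 12.4% of 201 and AGACT at 26.7% of 86. Among the 34 sites outside DRACH, GGACG was the most frequent with 14 sites, listed at 13.7% of its 102 occurrences (8.36 to 21.7), compared with 6.94% over all genes. GTACT followed with 3 sites. AGACG had 2 sites, the same number as TCACT, and TGACG also had 2.

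The median score of the member sites was 0.767 (quartiles 0.636 and 0.851), next to 0.754 (0.640 and 0.847) over the whole list. It was 0.812 in the 3′ UTR, 0.706 in the coding sequence and 0.636 in the 5′ UTR, and 0.777 at DRACH against 0.659 elsewhere. Among the 5 DRACH pentamers with the most member sites, GAACT had the highest median score (0.864), followed by GGACT (0.828). By step the medians were 0.762 for the linker, 0.735 for HS chain synthesis, 0.784 for HS modification, 0.738 for CS chain synthesis, 0.697 for CS modification and 0.789 for the core proteins. The quartiles of the steps overlapped widely. The highest scores belonged to SDC1, CHST14 and EXTL3 and the lowest to B3GALT6, AGRN and NDST1.

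**Figure D5:**
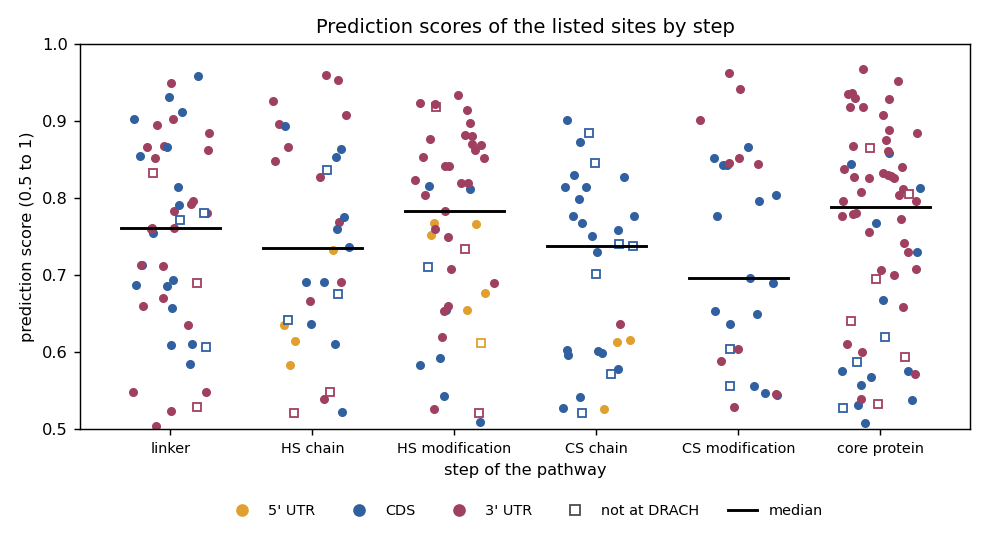
Prediction score (vertical axis, 0.5 to 1) of each of the 246 member sites by step of the pathway, coloured by transcript region, with open squares for sites outside DRACH and a line at the median of each step. Points are spread sideways for legibility; the medians lie between 0.697 for CS modification and 0.789 for the core proteins.

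Of 56 other genes of the pathway, 15 had a site, with 75 sites in all. These counts are to be read against the 19.9% of all protein-coding genes with a site, and no test was made of any set. The sets, like the members, were chosen with earlier results of these data known. In the supply of sugar nucleotides and sulfate donors 2 of 10 genes had sites, SLC35B2, a transporter of the sulfate donor, with 5 and SLC35A2, a transporter of UDP-galactose, with 1. None of the 11 further synthesis and modification genes had a site. Of 19 further core proteins 4 had sites, with COL18A1 at 14 and CD44 and NRP1 at 6 each. Of the 16 genes for degradation 9 had sites, with NAGLU, a lysosomal enzyme of HS breakdown, at 15 and HYAL2, a hyaluronidase, at 9.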

How the data were processed

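miCLIP2 was done on polyadenylated RNA from 3 biological replicates of C643 cells (4 libraries). The authors aligned reads with STAR (2.7.3a) to GRCh38 with GENCODE release 31, kept unique reads, removed duplicates with UMI-tools (1.0.0) and called peaks per replicate with PureCLIP. Peaks in at least 2 replicates were classified at adenosines by m6Aboost. The deposited prediction score is a fraction between 0 and 1, and the list pools the replicates.

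Sites were assigned by position and strand to GENCODE release 44 exons. Regions and motifs were taken from the longest spliced transcript, after transcripts with a support level (TSL) above 3 or an annotation level above 2 had been removed. In protein-coding genes, protein-coding transcripts were preferred. All sites lay at an A (0 did not) and 0 were duplicated. The stop codon was counted as coding. Distances to the stop codon were measured from its first base. Genes were named by a rule covering all members, and in full NDST1, the members with most sites, single coding exons and extreme scores. The members and gene lists were chosen with earlier results of these data known. Related coding sequences were aligned globally with Biopython (1.88). No test was run, because the list has 1 group and no replicate values. Site assignment was tested on simulated data. Alternatives changed score threshold, transcript, motif, windows and members. Python (3.11.15), numpy (2.4.6), scipy (1.17.1) and matplotlib (3.10.9) were used.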

Additional observations from a re-analysis of the deposited data

How the results depend on the processing

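Of 55 alternative values over 13 results, 30 moved by less than the interval or 1.5-fold margin set for them and 25 moved more. Some outcomes were fixed in advance, so this tally does not measure stability. Leaving out NDST1 could not change the share with the coding sequence in 1 exon. A higher score threshold can only lower the listed shares, and RAC includes every DRACH motif. The number of members with a site was 20 under each alternative tried, and NDST1 had 42 sites, or 30 at a score of at least 0.7. That threshold left 153 member sites, with 63.4% in the 3′ UTR, 90.8% at DRACH, a median score of 0.830 and 7.47% of DRACH motifs listed. Of coding motifs it left 16.3% listed with the coding sequence in 1 exon, 5.09% with several exons, 1.59% near a junction and 15.1% farther away. With RAC as the motif 94.7% of sites lay at the motif, 8.61% of motifs were listed, and the coding shares were 16.4% in 1 exon, 6.74% in several exons and 16.6% far from a junction. With GGACT the shares were 43.2% of all motifs, 66.7% in 1 exon, 37.5% in several exons, 20.0% near and 78.9% far from a junction. A window of 200 nt gave 7.07% near a junction, and one of 50 nt gave 18.0% farther away. Leaving out HSPG2 (6.60% near a junction), NDST1 (4.76% for HS modification), CHST12 (22.9%) or CHST14 (4.0% for CS modification) was chosen after seeing the data. The share was higher far from a junction than near one, and higher in 1 exon than in several, in each of these. Leaving out HSPG2 also gave 13.9% for the core proteins and 13.2% for coding motifs with several exons. Leaving out CHST12 also gave 14.9% for 3′ UTR motifs. These further values are not among the 55. Beyond the changed threshold, motif, window or gene itself, the cause was not tested. No paired analysis was possible because the list pools the replicates, and for the same reason no replicate could be left out. Depth per site is unknown.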
